A study of Mus musculus with 8 samples.

Results

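The replication-dependent histone genes supply most of the histone protein onto which newly made DNA is wrapped. They were taken as every gene symbol in the deposited table that begins with Hist1h, Hist2h, Hist3h or Hist4h, which gave 62 genes of 26590 symbols. By type they were 6 genes for H1, 15 for H2A, 18 for H2B, 11 for H3 and 12 for H4. The symbol gave 63 rows, because Hist1h2be had 2, and the row with the higher level was used. One of the 62, Hist3h2bb-ps, carries the symbol of a pseudogene.

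Histones H2A, H2B, H3 and H4 form the core particle of chromatin, and H1 binds the DNA that enters and leaves it. The genes studied here are copied many times over and lie in clusters, are transcribed mainly while a cell replicates its DNA, and make short messenger RNAs without introns. These messengers end in a stem-loop in place of a poly(A) tail, and the stem-loop binding protein encoded by Slbp binds it. Histone variants such as H3f3a, Cenpa and H2afz are used outside replication, come from separate genes and make messengers with a poly(A) tail.

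Total RNA of male fetal hearts was sequenced from 4 Dio3+/+ and 4 Dio3-/- fetuses, both on the C57BL/6J background, with 1 fetus per sample. Dio3 encodes the deiodinase that inactivates thyroid hormone, and Dio3-/- fetuses lack it in every cell, the heart included. All 8 sample titles give E13.5, but Dio3-/- hearts 3 and 4 carry E18.5 in the age field, the methods give a stage between these for all of them, and the labels do not tie hearts to litters. Ribosomal RNA was removed with probes and complementary DNA was made with random primers, so that no step selected for a poly(A) tail. The deposited table gives, for each genotype, the authors' mean and the coefficient of variation (CV), the SD between hearts in units of the mean. Values for single hearts were not part of it, so the depth of each sample and the overlap between hearts of the genotypes are unknown. Means are read here as RPKM, reads per kilobase of transcript scaled to the mapped reads of the library. Dio3 itself was below 1 RPKM in both genotypes, at 0.35 RPKM (CV 1.23) in Dio3+/+ hearts against 0.13 RPKM (CV 0.76) in Dio3-/- hearts, and was too low to check the labels.

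The stem-loop of the messengers was looked for in the sequence after the stop codon of the GENCODE vM21 transcripts, which could be searched in 46 of the 62 genes with at least 40 bases there. The most frequent words of 16 bases are shown because they carry the feature that sets these messengers apart. Capitals mark the 6 bases on each side that pair with each other and lower case marks the loop of 4 bases.
Most frequent word, in 22 genes of the types H1, H2A, H2B and H3: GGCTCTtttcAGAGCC
Word with another last loop base, in 6 genes of the types H1, H2B and H3: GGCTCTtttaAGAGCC
Most frequent H4 word, in 6 genes: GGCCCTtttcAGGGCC
H4 word with another last loop base, in 2 genes: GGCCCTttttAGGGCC
Another H4 word, in 2 genes: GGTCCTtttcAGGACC

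None of the 11 H4 genes searched had the most frequent word, and all 11 had a word within 4 mismatches of it. In each of the H4 words the bases of both sides differed from the most frequent word together, so that the 6 bases on each side still paired. The most frequent word was present in 29 of 55341 gene symbols of the annotation, of which 26 were histone cluster genes and 3 were others. It was present in 0 of 12 genes for replication-independent variants. These were searched for the exact word only, which the 11 H4 genes also lacked, so other stem-loop words in them were not looked for. No word within 4 mismatches was found for Hist1h1a, Hist1h2bc, Hist1h2br, Hist2h2be and Hist2h3b in the annotated sequence after the stop codon. Their means in Dio3+/+ hearts were 182 RPKM, 616 RPKM, 231 RPKM, 3.64 RPKM and 758 RPKM, respectively.

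Promoters of 56 of the 62 genes were found in RefSeq on GRCm38.p6, and the 250 bases before the start of each were searched on both strands for 4 words known from histone promoters. The words were CCAAT for the factor NF-Y, TATAA for the TATA box, ATTTGCAT for the octamer and, from promoters of the linker histone, AAACACA. None of the 4 contains another. CCAAT was found in 83.9% of the histone promoters against 34.5% of all 27025 promoters of the same length, and at least 2 copies were found in 69.6% against 10.5%. It was in all 6 H1, all 15 H2A and all 15 H2B promoters and in 8 of 9 H3 promoters, but in 3 of 11 H4 promoters. TATAA was found in 67.9% against 23.5% of all promoters. The octamer was found in 23.2% against 1.61%, in 7 of 15 H2A and 6 of 15 H2B promoters and in no promoter of the other types. AAACACA was found in 16.1% against 6.22%, and 5 of the 6 H1 promoters held it. One promoter is shown as an example for each of H1, H2B, H3 and H4, with the 4 words on either strand in capitals. Promoters of the same type differed in these words, so that a single promoter does not stand for its type.
Hist1h1e, chr13:23622559-23622808, minus strand: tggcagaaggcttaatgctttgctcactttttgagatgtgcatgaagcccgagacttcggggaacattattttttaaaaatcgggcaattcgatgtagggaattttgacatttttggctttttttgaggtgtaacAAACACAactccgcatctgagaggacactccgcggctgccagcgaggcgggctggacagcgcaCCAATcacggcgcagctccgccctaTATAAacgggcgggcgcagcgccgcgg
Hist1h2bk, chr13:22035571-22035820, plus strand: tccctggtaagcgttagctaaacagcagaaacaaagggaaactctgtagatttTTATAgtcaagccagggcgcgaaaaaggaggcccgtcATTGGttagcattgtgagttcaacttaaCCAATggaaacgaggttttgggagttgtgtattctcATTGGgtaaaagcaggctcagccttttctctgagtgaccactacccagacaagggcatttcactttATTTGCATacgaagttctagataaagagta
Hist1h3h, chr13:21717378-21717627, plus strand: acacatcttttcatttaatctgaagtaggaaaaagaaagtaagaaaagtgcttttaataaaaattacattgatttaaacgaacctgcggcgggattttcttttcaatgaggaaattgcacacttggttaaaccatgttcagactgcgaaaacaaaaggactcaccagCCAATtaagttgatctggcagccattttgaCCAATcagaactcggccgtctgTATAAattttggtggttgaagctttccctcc
Hist1h4k, chr13:21750554-21750803, minus strand: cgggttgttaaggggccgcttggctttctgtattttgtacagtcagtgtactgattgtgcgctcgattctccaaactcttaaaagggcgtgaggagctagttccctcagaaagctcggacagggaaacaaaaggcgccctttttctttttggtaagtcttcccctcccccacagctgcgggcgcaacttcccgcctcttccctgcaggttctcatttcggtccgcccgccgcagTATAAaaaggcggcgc

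The promoter of Hist1h1e held AAACACA, 1 CCAAT and TATAA, in that order toward the start. That of Hist1h2bk held 3 copies of CCAAT as well as 1 TATAA on the other strand, and the octamer lay nearest the start, that of Hist1h3h held 2 copies of CCAAT followed by TATAA, and that of Hist1h4k held TATAA without the other 3. The matches describe the letters of these windows and were not tested as binding sites.

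Histone cluster messengers were abundant in the fetal heart. Of the 62 genes, 53 averaged above 100 RPKM over both genotypes, among 654 such genes in all, and 19 averaged above 1000 RPKM. Together their means summed to 43252 RPKM in Dio3+/+ hearts and 47645 RPKM in Dio3-/- hearts. Of the Dio3+/+ sum, 91.6% came from the 50 genes of the Hist1 cluster on chromosome 13, 8.0% from the 8 genes of the Hist2 cluster on chromosome 3, 0.231% from the 3 Hist3 genes on chromosome 11 and 0.127% from Hist4h4 on chromosome 6. By type, the Dio3+/+ sum was 695 RPKM for H1, 11962 RPKM for H2A, 10115 RPKM for H2B, 8450 RPKM for H3 and 12029 RPKM for H4. The linker histone sum was thus far below that of each core histone, as the plot of the levels by type shows. How reads that match several copies entered these sums was not tested. Copies of the core types share more sequence than those of H1, as given below. Below 1 RPKM in both genotypes were Hist1h1t and Hist1h2aa, both known from the testis, with 0.85 RPKM and 0.62 RPKM in Dio3+/+ hearts and 0.70 RPKM and 0.40 RPKM in Dio3-/- hearts. The next lowest was Hist2h2be, at 3.64 RPKM and 3.60 RPKM.

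**Figure D1:**
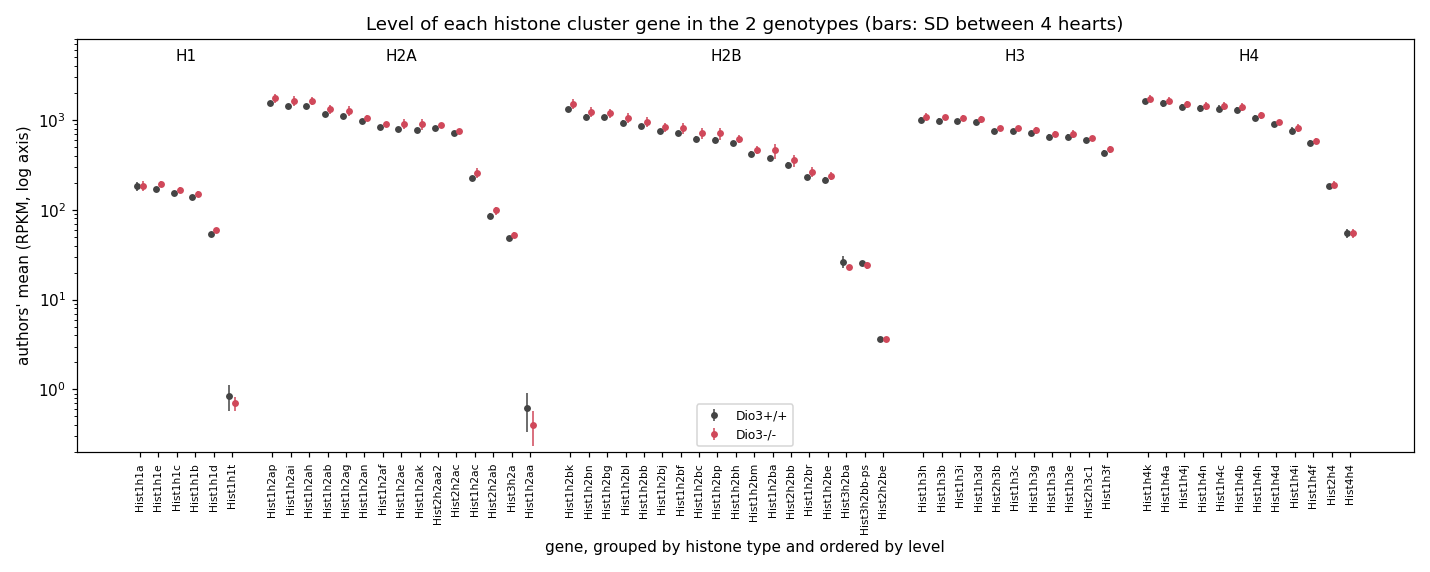
Authors' mean of each of the 62 histone cluster genes (RPKM, log axis) in Dio3+/+ and Dio3-/- hearts, grouped by histone type and ordered by level, with bars of 1 SD between 4 hearts derived from the CV. Only 2 genes lie below 1 RPKM, 19 lie above 1000 RPKM, and the 2 genotypes lie close together at each gene.

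The level of a single copy is uncertain, because the copies are alike. The coding sequence of each gene in GENCODE vM21 was divided into every window of 75 bases, the length of the reads, and a window was counted as shared when it was also in another histone cluster gene. More than 50% of windows were shared in 41 of the 62 genes, all windows were shared in 6 (Hist1h2ap, Hist1h2ag, Hist2h2aa2, Hist1h2br, Hist2h3c1 and Hist1h4n), and none in 8. Counted against any gene of the annotation, all windows were shared in 9, the other 3 being Hist2h2bb, Hist3h2a and Hist2h3b. Genes were told apart by name and both strands were searched, so a gene annotated at the same place also counted as another. A window shared in that way need not match a read to several places. Within the histone clusters Hist2h2bb was among the 8 with none. The median share within the clusters by type was 8.8% for H1, 71.2% for H2A, 64.8% for H2B, 77.2% for H3 and 62.6% for H4. According to the methods, only reads that map to a single place were used. Even so, none of the 62 genes was at 0 in either genotype, and Hist1h2ap, with all of its coding windows shared, had the highest H2A level, 1532 RPKM in Dio3+/+ hearts. Windows outside the coding sequence were not counted, and how shared reads were divided among copies was not tested. H1 had the lowest median share and no gene above 18.3%, though some genes of the other types shared as little.

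**Figure D2:**
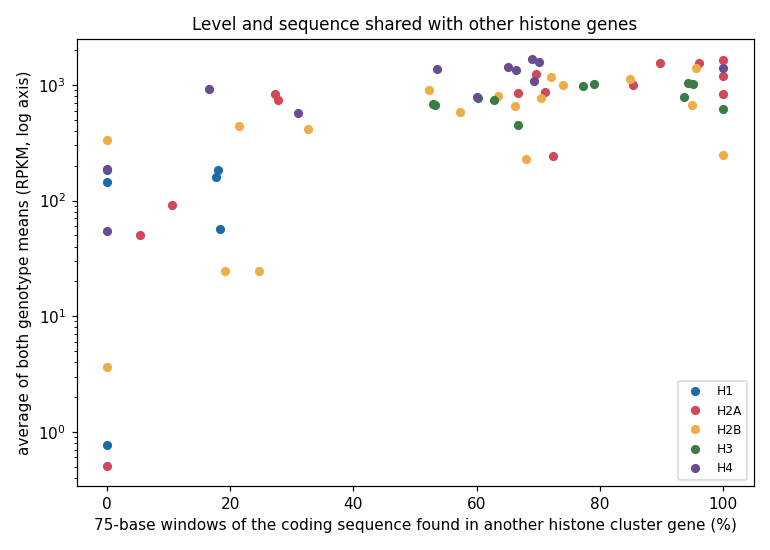
Average of both genotype means (RPKM, log axis) against the share of 75-base coding windows found in another histone cluster gene, for the 62 genes coloured by type. The H1 genes lie at or below 18.3%, while 6 genes of the other types lie at 100% with averages above 100 RPKM.

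The comparison of Dio3-/- with Dio3+/+ hearts asked whether histone cluster messengers differed when fetal tissue could not inactivate thyroid hormone. Of the 62 genes, 60 lay above the limit of 1 RPKM for testing, each of them in both genotypes. Adjusted P values, from limma with Benjamini-Hochberg adjustment over all 32703 rows tested, were under 0.05 for 0 of the 60, against 2.29% of all 14657 gene symbols tested, of which 1.91% were higher and 0.382% lower in Dio3-/- hearts. Unadjusted P values under 0.05 were found for 6 of the 60 by limma, or 10%, against 19.7% of all genes, and for 2 by Welch's test calculated from the same summaries, which also gave no adjusted P value under 0.05. The 6 were Hist1h1e, Hist1h1d, Hist2h2ab, Hist3h2a, Hist1h2ba and Hist1h2bc, each with a higher mean in Dio3-/- hearts, against 15.2% of all genes on that side. The means nevertheless leaned to one side, since 57 of the 60 were higher in Dio3-/- hearts, against 63.3% of all genes tested and 69.7% of those averaging above 100 RPKM. The median log2 fold change of the 60 was 0.127, that of all genes tested 0.039 and that of the 654 genes averaging above 100 RPKM 0.065. Fold changes are on the scale of log2(RPKM + 0.5). A log2 fold change above 0.1 was seen in 46 of the 60 genes, or 76.7%, against 29.9% of all genes. The 60 genes were measured in the same hearts and share reads, and are not replicates. No 95% confidence interval reached beyond 0.545 on the log2 scale, a fold of 1.46, or below -0.409, as the plot of the fold changes with their intervals shows.

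**Figure D3:**
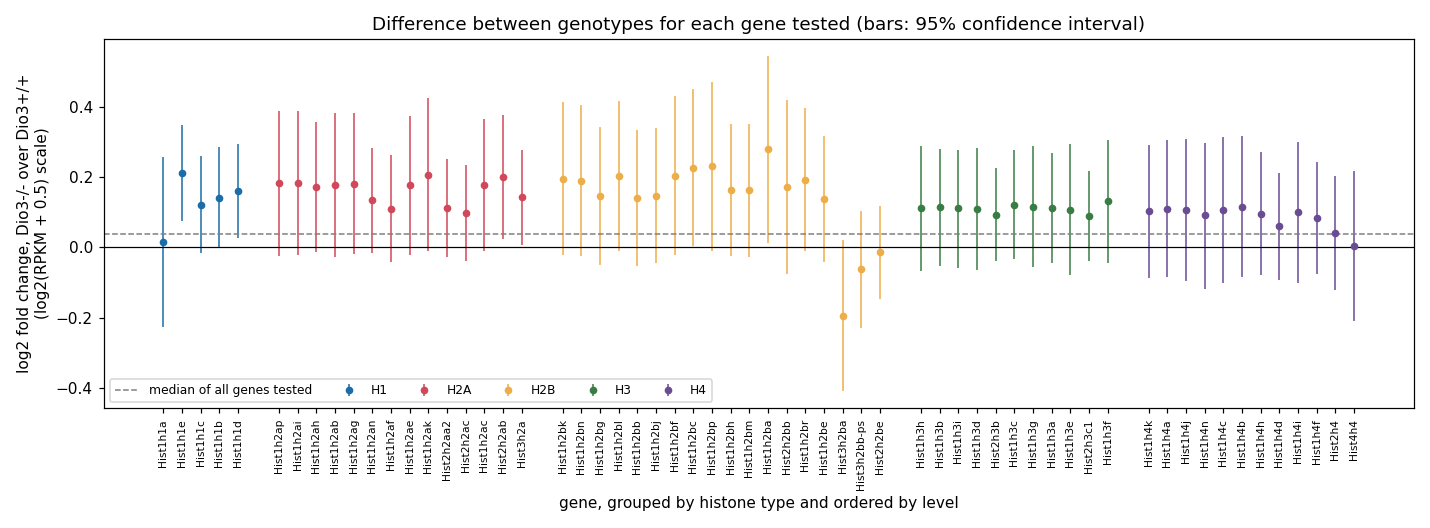
Log2 fold change of Dio3-/- over Dio3+/+ hearts for the 60 genes tested, with 95% confidence intervals from limma, grouped by type and ordered by level; the dashed line is the median of all genes tested, 0.039. The points of H2A, H3 and H4 form narrow bands above 0, and only 3 H2B genes lie below it.

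Linker histone genes gave the smallest unadjusted P value of the 60. Hist1h1e, which encodes a somatic H1 subtype, averaged 169 RPKM in Dio3+/+ hearts and 196 RPKM in Dio3-/- hearts (CV 0.06 in each). Its log2 fold change was 0.21, with an SE of 0.061 and a 95% confidence interval from 0.075 to 0.349, and its adjusted P value was 0.101 by limma (unadjusted P = 0.00650). Hist1h1a, the highest of the type in Dio3+/+ hearts and over both genotypes but below Hist1h1e in Dio3-/- hearts, averaged 182 RPKM (CV 0.12) and 184 RPKM (CV 0.13). The interval of its log2 fold change of 0.02 ran from -0.226 to 0.257. Hist1h1c had 152 RPKM and 166 RPKM, and its log2 fold change of 0.12, with an interval from -0.015 to 0.26, lay between theirs. The H1 sum was 1.09 times as high in Dio3-/- hearts, and adjusted P values of the 5 genes tested ran from 0.101 to 0.959. Whether H1 subtypes differed from each other in their change was not tested.

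All 14 H2A genes tested had a higher mean in Dio3-/- hearts, with log2 fold changes from 0.10 to 0.21 and a median of 0.177. The highest, Hist1h2ap, averaged 1532 RPKM (CV 0.05) in Dio3+/+ hearts and 1738 RPKM (CV 0.12) in Dio3-/- hearts. Hist1h2ai had 1445 RPKM and 1642 RPKM, and Hist1h2ah had 1448 RPKM and 1631 RPKM. These top 3 thus kept close to each other in both genotypes, but 100%, 89.9% and 96.1% of their coding windows, respectively, were shared with another histone cluster gene. The largest log2 fold change of the type, 0.21 with an SE of 0.097, was that of Hist1h2ak, with 777 RPKM against 897 RPKM. The smallest, 0.10 with an SE of 0.061, was that of Hist2h2ac in the Hist2 cluster, with 713 RPKM against 763 RPKM. Adjusted P values of the type ran from 0.206 to 0.432 by limma, and the sum was 1.12 times as high in Dio3-/- hearts.

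H2B genes spanned the widest range of fold changes of the 5 types. Of 18 genes, 15 had a higher mean in Dio3-/- hearts, and the sum was 1.14 times as high, the largest ratio of the 5 types, with adjusted P values from 0.242 to 0.929. The highest was Hist1h2bk, at 1313 RPKM (CV 0.06) in Dio3+/+ hearts against 1504 RPKM (CV 0.13) in Dio3-/- hearts. Hist1h2bn followed with 1088 RPKM and 1241 RPKM, and Hist1h2bg with 1070 RPKM and 1184 RPKM. The largest log2 fold change of the 60 genes was that of Hist1h2ba, a gene known for its H2B variant of the testis. Its level was 378 RPKM (CV 0.04) in Dio3+/+ hearts and 459 RPKM (CV 0.19) in Dio3-/- hearts. That gave a log2 fold change of 0.28 with an SE of 0.118 and an adjusted P value of 0.242 by limma. The 3 genes with a lower mean in Dio3-/- hearts were Hist3h2ba, Hist3h2bb-ps and Hist2h2be, which were also the 3 lowest of the type. Hist3h2ba had 26.5 RPKM (CV 0.15) in Dio3+/+ hearts and 23.1 RPKM (CV 0.05) in Dio3-/- hearts. Its log2 fold change was -0.19 with an SE of 0.096.

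In their fold changes the 11 H3 genes differed little among themselves. However, 53.0% to 100% of the coding windows of each were shared with another histone cluster gene, so their values are not independent. Every mean was higher in Dio3-/- hearts, log2 fold changes ran from 0.09 to 0.13, and adjusted P values by limma ran from 0.393 to 0.537. The highest levels were those of Hist1h3h, with 1010 RPKM in Dio3+/+ hearts and 1090 RPKM in Dio3-/- hearts, of Hist1h3b, with 985 RPKM and 1066 RPKM, and of Hist1h3i, with 975 RPKM and 1053 RPKM. Even the lowest gene of the type averaged 454 RPKM, so that no H3 gene was nearly silent. The log2 fold change was largest for Hist1h3f, 0.13 with an SE of 0.077, and smallest for Hist2h3c1, 0.09 with an SE of 0.057. The H3 sum was 1.08 times as high in Dio3-/- hearts.

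The 12 H4 genes also all had a higher mean in Dio3-/- hearts, but by less, with a median log2 fold change of 0.098 and a sum 1.07 times as high. Hist1h4k had the highest level of all 62 genes, at 1611 RPKM (CV 0.07) in Dio3+/+ hearts against 1731 RPKM (CV 0.09) in Dio3-/- hearts. Hist1h4a had 1526 RPKM and 1647 RPKM, and Hist1h4j had 1388 RPKM and 1495 RPKM. The largest log2 fold change of the type was that of Hist1h4b, 0.12 with an SE of 0.089. The smallest was that of Hist4h4, the only Hist4 gene, with 54.9 RPKM and 55.1 RPKM and an interval from -0.209 to 0.218. Adjusted P values of the type ran from 0.537 to 0.986 by limma.

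After centring on the median of all rows tested, a shift of 0.038 on the log2 scale, 55 of the 60 means stayed higher in Dio3-/- hearts, and Hist1h1a and Hist4h4 turned lower by 0.022 and 0.033 on the log2 scale. The median of the 60 was then 0.089, that of H3 0.073 and that of H4 0.060. By cluster, the median log2 fold change was 0.139 for the 48 Hist1 genes tested, 0.096 for the 8 Hist2 genes, -0.062 for the 3 Hist3 genes and 0.005 for Hist4h4.

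H2A and H2B genes often lie side by side and are transcribed away from each other from a shared promoter region. Among the histone genes here, 8 such neighbouring pairs were found in RefSeq, and they are named because of this position. In 7 of them the level of the H2A gene was 0.719 to 6.6 times that of its H2B partner. The exception was the pair of Hist1h2aa and Hist1h2ba, both known from the testis, in which the H2B gene averaged 418 RPKM and the H2A gene 0.51 RPKM, a ratio of 820. Of the coding windows of Hist1h2ba, 32.6% were shared with another histone cluster gene, and of those of Hist1h2aa none.

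The hearts of the 2 genotypes were also compared in how far they spread around their mean. The CV was higher in Dio3-/- hearts in 51 of the 60 genes, equal in 7 and lower in Hist1h1b and Hist3h2ba. In 85.0% of the histone genes it was higher, against 27.3% of all genes tested. Of the gene lists described below, it was higher in 16 of 31 S-phase genes and in 12 of 20 of G2 and mitosis. Among other RNAs without a regular poly(A) tail it was higher in 4 of 6. It was higher in 4 of 25 genes of histone messenger transcription and processing and in 5 of 21 of chaperones and acetylation. For variants it was 1 of 11 and for cell cycle exit 0 of 11. The median CV over all genes tested was 0.09 in Dio3+/+ hearts and 0.06 in Dio3-/- hearts, so that most genes leaned the opposite way. Among genes averaging above 100 RPKM, it was higher in Dio3-/- hearts in 47 of 53 histone genes, or 88.7%. Over all 654 such genes, the histone genes included, the share was 28.6%. The types differed in this. The median CV was 0.05 in Dio3+/+ hearts and 0.11 in Dio3-/- hearts for H2A, and 0.06 and 0.12 for H2B. It was 0.06 and 0.08 for H3, 0.08 and 0.095 for H4, and 0.06 in both for H1. A CV of at least 0.10 in Dio3-/- hearts beside at most 0.08 in Dio3+/+ hearts was found in 26 of the 53 histone genes. Of the 601 other genes above 100 RPKM, 19 had it, and with the histone genes included it was 6.88% of the 654. Of the 26, 8 were H2A, 15 H2B, 1 H3, 2 H4 and none H1, and the plot of both CVs shows them above the line of equality. The limits of 0.10 and 0.08 were chosen after the values were seen. Hist1h2ba had the highest value in Dio3-/- hearts, 0.19, followed by Hist2h2bb and Hist1h2bp with 0.16. The CVs come from 4 hearts each and are rounded to 2 decimals, the genes share hearts and reads, and the difference in spread was not tested. Which heart set the spread is unknown from these values, and the part of the 2 Dio3-/- hearts whose age field differs was not tested.

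**Figure D4:**
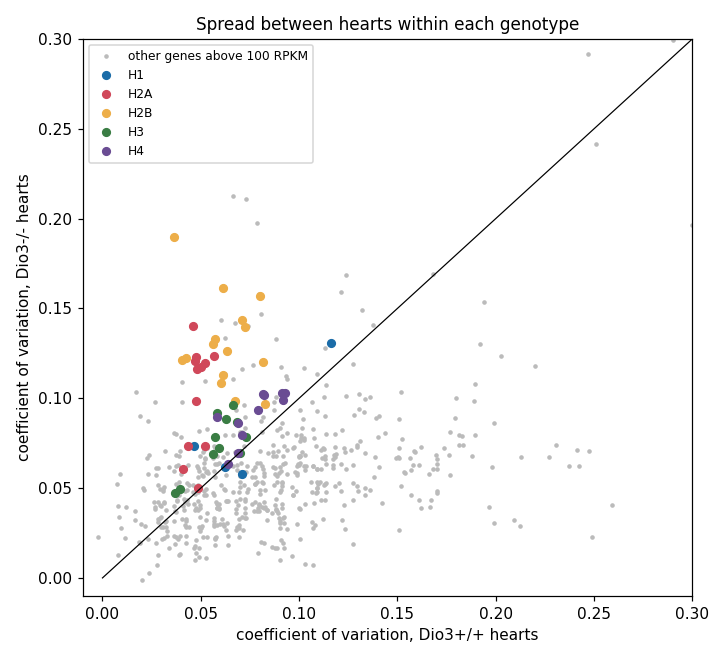
Coefficient of variation (CV) between the 4 hearts of each genotype, Dio3-/- against Dio3+/+, for 53 histone cluster genes by type and the other genes averaging above 100 RPKM in grey, with small random shifts to part equal values. The line marks equality, 19 other genes lie outside the axes, and most H2A and H2B genes lie above the line at 0.10 or more on the Dio3-/- axis.

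The machinery that makes and handles histone messengers was read against all genes tested, of which 1.91% were higher and 0.382% lower past the test. Of 25 genes tested for histone messenger transcription and 3′ processing, 1 rose and none fell by limma with Benjamini-Hochberg adjustment, and the median log2 fold change was 0.073. The gene that rose was E2f1, a transcription factor of S-phase entry, at 9.21 RPKM in the control hearts and 10.8 RPKM in those without Dio3. Its log2 fold change was 0.22 (limma, adjusted P = 0.0437). That call was lost under 5 of the 12 alternative settings. Slbp had 23.9 RPKM and 25.2 RPKM, with an adjusted P value of 0.73 by limma. Npat, the coactivator of histone gene transcription, had 10.4 RPKM in both. Of 21 genes for histone chaperones and acetylation, which escort and modify new histones, none passed, and their median was 0.031. Of 11 replication-independent variants, 1 rose and none fell, with a median of 0.032. It was Cenpa, the H3 variant of centromeres, with 35.5 RPKM and 41.9 RPKM and an adjusted P value of 0.0286 by limma, a call lost under 4 of the 12 settings.

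Genes of the dividing cell mostly had higher means in Dio3-/- hearts too. Of 31 S-phase and DNA replication genes, 29 had a higher mean in Dio3-/- hearts, against 63.3% of all genes tested, and 1 rose by limma, against 1.91%. It was the ribonucleotide reductase gene Rrm2 (limma, adjusted P = 0.0318), and the median log2 fold change of the list was 0.107. Of 20 genes of G2 and mitosis, 19 had a higher mean, against the same 63.3%, and none passed, with a median of 0.157. Pcna, the sliding clamp of replication, had 87.0 RPKM and 95.2 RPKM, and Mki67, a marker of cycling cells, 59.7 RPKM and 67.6 RPKM, with adjusted P values of 0.376 and 0.133 by limma. Of 11 genes of cell cycle exit, none passed and the median was -0.038. Of 6 other RNAs without a regular poly(A) tail, such as Rmrp and Rpph1, none rose and Rnu12 fell (limma, adjusted P = 0.0418). Their median was -0.188, and all 6 had a lower mean. The plot by gene list sets these medians beside those of the histone types. Whether the lists differed from the histone genes was not tested.

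**Figure D5:**
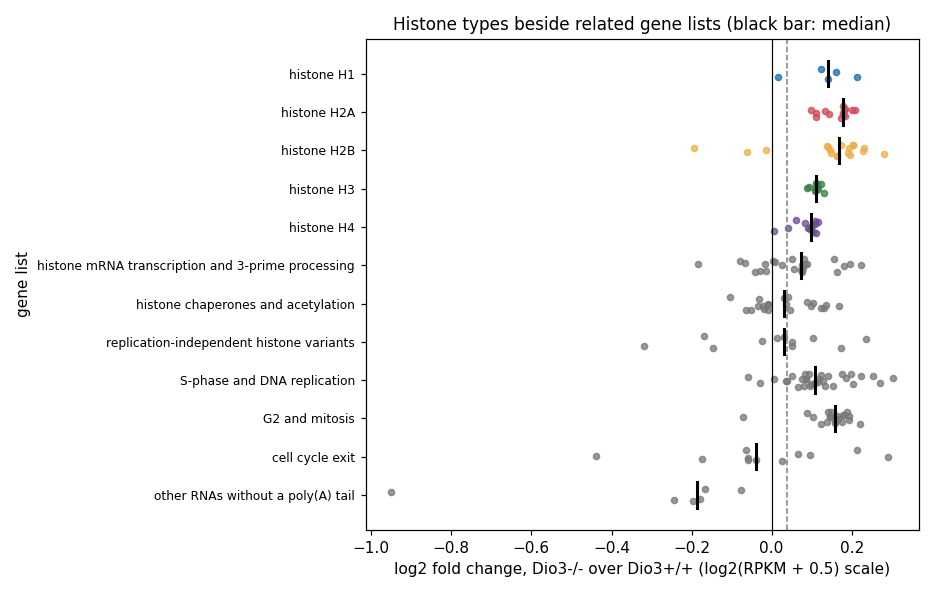
Log2 fold change of Dio3-/- over Dio3+/+ hearts for the histone genes of each type and for 7 related gene lists, 1 point per gene tested, with a black bar at the median of each list and a dashed line at the median of all genes, 0.039. The medians of the 5 histone types lie between 0.098 and 0.177, near those of S-phase (0.107) and of G2 and mitosis (0.157).

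Summed levels of the markers of several cell types differed between the genotypes in the same hearts, and in whole hearts fewer cells of a type and less RNA per cell cannot be told apart. The 8 cardiomyocyte markers summed to 11705 RPKM in Dio3+/+ hearts and 13949 RPKM in Dio3-/- hearts, with Myh6 and Ryr2 higher by limma, so the tissue had the markers of its label. The 8 erythroid markers tested summed to 37280 RPKM and 12752 RPKM, with 7 lower and Hbb-bh1 the one that passed, at 318 RPKM and 111 RPKM (limma, adjusted P = 0.0468). Their median CV was 0.33 in Dio3+/+ hearts and 0.55 in Dio3-/- hearts, and it was higher in Dio3-/- hearts in all 8. The 8 hepatocyte markers summed to 16 RPKM and 108 RPKM, all 8 higher and none past the test, with Alb at 5.16 RPKM and 36.1 RPKM and Afp at 5.11 RPKM and 44.6 RPKM. The median CV of these 8 was 0.99 in Dio3+/+ hearts and 1.115 in Dio3-/- hearts, so the SD between hearts was about as large as the mean. That of Alb was 1.29 and 1.18 and that of Afp 1.24 and 1.18. Which hearts held most of this signal is unknown. The 5 endothelial markers summed to 210 RPKM and 225 RPKM, and the 6 fibroblast and epicardial markers to 514 RPKM and 448 RPKM. The 5 macrophage markers, of which 3 were tested, summed to 18.1 RPKM and 16.7 RPKM. No endothelial, fibroblast, epicardial or macrophage marker passed. The part of these markers in the histone levels and in their spread was not tested.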

How the data were processed

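RNA of 8 fetal hearts, 4 per genotype, was sequenced as single reads of 75 bases. According to the submitters' processing notes, reads were checked with FastQC and aligned with Novoalign (version 2.08). Reads with a single place were kept, and samples were scaled to the smallest read total. For the alignment, a genome build is not given in the sources used here. The authors deposited 51414 rows, each a transcript, with 1 mean per genotype, read as RPKM because the methods filter on that unit while the table names none, and 1 coefficient of variation per genotype, the ratio of SD and mean. Both were rounded by the authors to 2 decimals. The methods give a range of aligned reads over the samples but no total for each, so depth and counting precision were not used. Columns of the authors' own comparisons (fold change, test values) were not used.

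From each deposited mean, log2(mean + 0.5) was taken, and its SD was derived from the coefficient of variation. The variance pooled over both genotypes (residual degrees of freedom, 6) was moderated by limma 3.58.1 in R 4.3.3 with a trend on the mean (prior degrees of freedom, 3.52). Two-sided P values were adjusted by Benjamini-Hochberg over all 32703 rows in which 1 or both means exceeded 1 RPKM. Each gene was taken from its row with the highest average. The procedure was tested on simulated data with independent rows and the same coefficient of variation in both genotypes. Genes that share reads, as the histone copies do, were not simulated. P values weigh the difference of the genotype means against this moderated spread between individual fetuses. Any difference of litter or age within a genotype is part of that spread. Genes named were the 3 highest and the largest and smallest log2 fold change of each type, genes of the processing, chaperone and variant lists that passed, Slbp, Npat, Mki67, Pcna, Dio3, Alb, Afp and Hbb-bh1. Other genes named were chosen after their values were seen. The members and gene lists were chosen with earlier results of these data known. Alternatives were other pseudocounts, filters and rows per gene, no trend, Welch's test, centring, and coefficients of variation raised by their rounding error or limited. Python 3.11.15, pandas 2.3.3, numpy 2.4.6 and matplotlib 3.10.9 were used.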

Additional observations from a re-analysis of the deposited data

How the results depend on the processing

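No histone cluster gene passed under any of the 12 alternative settings, and the median log2 fold changes kept their sign in each. The setting that counted any row of a gene reused the main fit, so its values for named genes were the main ones and could not differ. Centring took the median of all histone genes from 0.127 to 0.089, of H3 from 0.111 to 0.073 and of H4 from 0.098 to 0.060, the last 2 by over 1.5 times. The lowest adjusted P value of a histone gene by limma was 0.0832 with a filter on an average above 5 RPKM and 0.21 with centring, in each case that of Hist1h1e. Unadjusted P values under 0.05 were found for between 2 and 6 histone genes. Without a filter on low values all 62 were tested, of which 57 were higher and 5 lower in Dio3-/- hearts. Of the recomputed values of named genes, 336 kept their direction and call, 9 lost the call and 3 turned sign, all 3 after centring: Hist1h1a to -0.022, Hist4h4 to -0.033 and Npat to -0.035. The call of E2f1 was lost with no filter, no trend, Welch's test, centring and the raised coefficient of variation, and that of Cenpa with the last 4 of these. The alternatives for E2f1, Cenpa, Slbp, Npat, Mki67 and Pcna were added after the data were seen. Other genes that passed, such as Rrm2, Rnu12 and Hbb-bh1, were not recomputed under the alternatives. No paired analysis was possible because the table holds no value for a single heart, and leaving out a heart could not be done for the same reason. The log of a mean stands in for the mean of the logs, and copies of near identical sequence limit what can be said of a single gene.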
